A study of Mus musculus with 6 samples.

Results

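The 10 genes described here encode the proteins that hold endothelial cells together and mark them as endothelial: Cdh5, Pcdh12, Pecam1, Icam2, Esam and Cldn5 at the cell contacts, the receptors Tie1, Tek and Cd93, and the transcription factor Bcl6b. They were listed by symbol, and each has 1 row among the 24234 gene rows used. The genes were chosen by their measured difference between paced and sham mice, so the differences of these genes are a description, carry no test and support nothing further. The data are RNA sequencing of ventricular tissue from male C57BL/6 mice aged 8 to 10 weeks, with 3 mice in the pacing group and 3 in the sham group. Paced mice had a bipolar catheter in the esophagus next to the atria, and each session held 45 min of pacing with 80 ms between beats, with 3 min at 120 ms before and after it, daily for 5 days and, after 2 days of rest, for 3 more days. Sham mice were not paced, and the labels give no further detail of the sham procedure. No transgene or deletion is named for either group. The comparison asks how the ventricular transcripts of these genes differ after 8 days of atrial pacing.

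Endothelial cells line every vessel of the heart, and in the ventricle most of them lie in the capillaries between the muscle cells. Their contacts are built from adherens junctions, in which a cadherin binds its like on the next cell and is anchored to actin through catenins, and from tight junctions, in which claudins seal the gap. Immunoglobulin-like adhesion proteins at the same contacts guide leukocytes across, and the Tie receptors, which answer to angiopoietins, set how quiet and how tight the vessel wall is. Much of this program is switched on by transcription factors of the ETS, SOX, GATA and KLF families.

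Each value is an FPKM, that is fragments per kilobase of transcript scaled to the size of the library, so levels can be compared between genes. The steps between low values gave effective depths of 6280000 to 8910000 fragments per library. At that depth the fragments behind a member's value in a single mouse numbered from about 118, for Cldn5, to about 2335, for Cdh5. Counting error alone is then 9.21% at the lowest fragment number of Cldn5 and 2.5% at the lowest fragment number of Pecam1. All 10 genes had a mean FPKM of at least 1 and entered the fit. Log2 fold changes are group mean differences, pacing minus sham, of log2(FPKM + 1), a scale that understates differences at low levels, and their standard errors (SE) come from limma. All 10 genes were detected in every mouse, with mean levels between percentile 35.6 (Pcdh12) and percentile 91.5 (Pecam1) of the genes tested. In whole tissue, fewer endothelial cells and less RNA per endothelial cell cannot be told apart.

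Promoter sequences matched for 3 of the 10 members, Tie1, Tek and Cldn5, and are shown for the motifs of those families that their letters hold. Each is the 250 bases before the start used in a RefSeq promoter table (GRCm38.p6, the mm10 build), which for these 3 genes is also the start in the deposited tables, printed 5′ to 3′ on the strand of the gene, with every motif match in capitals, and a match on the other strand appears as its reverse complement. The motifs searched on both strands were CAGGAA and CCGGAA for ETS factors, AGATAA for GATA factors, CCACCC for KLF factors, ACAAT for SOX factors and TATAAA for the TATA box. Tie1 lies at chr4:118489850-118490099 on the minus strand, Tek at chr4:94739039-94739288 on the plus strand and Cldn5 at chr16:18776597-18776846 on the plus strand. The RefSeq gene span of Tek begins at 94739086, inside the Tek window, so that most of that window lies within the span.
Tie1: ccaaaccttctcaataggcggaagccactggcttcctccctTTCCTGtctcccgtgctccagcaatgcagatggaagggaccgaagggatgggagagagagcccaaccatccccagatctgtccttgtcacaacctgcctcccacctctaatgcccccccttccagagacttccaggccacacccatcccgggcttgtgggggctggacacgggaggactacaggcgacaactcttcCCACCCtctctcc
Tek: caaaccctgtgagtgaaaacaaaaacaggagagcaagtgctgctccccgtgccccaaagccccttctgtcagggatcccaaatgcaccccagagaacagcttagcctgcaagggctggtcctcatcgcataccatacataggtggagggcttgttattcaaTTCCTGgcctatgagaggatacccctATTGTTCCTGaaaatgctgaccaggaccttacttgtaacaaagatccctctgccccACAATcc
Cldn5: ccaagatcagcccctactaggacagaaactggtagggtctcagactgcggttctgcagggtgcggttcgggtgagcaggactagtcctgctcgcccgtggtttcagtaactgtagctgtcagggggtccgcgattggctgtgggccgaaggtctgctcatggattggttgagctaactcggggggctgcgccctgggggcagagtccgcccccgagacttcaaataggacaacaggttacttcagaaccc
The Tek window held CAGGAA at 2 places, 89 to 84 and 59 to 54 bases before position 94739289, and ACAAT at 2 places, 63 to 59 and 7 to 3 bases before it, all within the RefSeq gene span. The second ETS match and the first SOX match share 1 base. Tie1 held CAGGAA 209 to 204 bases before the start and CCACCC 13 to 8 bases before it. The Cldn5 window held none of these letters. Of 32851 windows of this length in RefSeq, 25.7% held CAGGAA, 12.0% CCGGAA, 9.99% AGATAA, 28.1% CCACCC, 27.7% ACAAT and 12.4% TATAAA. These matches are descriptions of the letters and not of binding.

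All 10 genes had a lower mean in paced than in sham ventricles with FPKM as deposited, although other scalings gave Pecam1, Esam, Cldn5 and Tie1 small positive differences. In 4 of them, Bcl6b, Pcdh12, Cd93 and Tek, each paced mouse lay below each sham mouse. None lay wholly higher. Over all 11992 genes tested, 6.97% lay wholly lower and 6.25% wholly higher in this way, and since the list was chosen with this contrast known, nothing is read from that share. The sizes were graded. The paced mean differed from the sham mean by -36.8% for Bcl6b, -36.2% for Pcdh12 and -28.1% for Cd93. For Icam2, Cdh5 and Tek the difference lay between -19.3% and -14.4%, and for Cldn5, Tie1, Esam and Pecam1 between -9.84% and -2.28%. The median log2 fold change was -0.25 over the 10 genes and -0.01 over all genes tested.

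**Figure D1:**
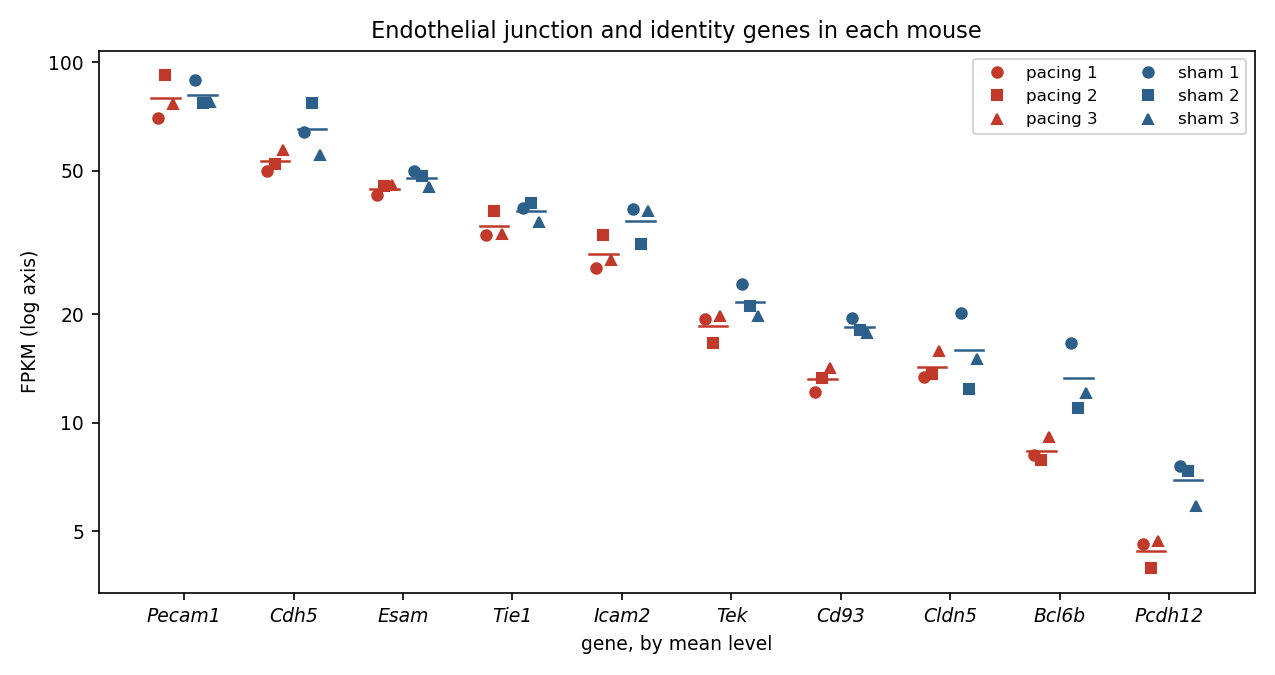
FPKM of each of the 10 genes in each mouse on a log axis, with genes ordered by their mean level, paced mice in red and sham mice in blue; short lines are group means over 3 mice. Bcl6b, Pcdh12, Cd93 and Tek show no overlap between the groups, while the paced mice of Pecam1 span 70.0 to 92.0 FPKM around the sham values.

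Among the cadherins, Cdh5 encodes VE-cadherin, the cadherin of endothelial adherens junctions. It stood at 49.8, 52.4 and 57.3 FPKM in pacing 1, 2 and 3, against 64.0, 77.3 and 55.3 FPKM in sham 1, 2 and 3. Sham 3 lay within the paced range, and sham 2 was the highest mouse. Means were 53.2 ± 3.78 in paced and 65.5 ± 11.1 FPKM in sham ventricles (SD, n = 3 each), with a log2 fold change of -0.29 (SE 0.12), or -0.16 without sham 2. In the deposited tables the row of Cdh5 covers chromosome 8 from 104088916 to 104144502 (mm10), a span that it shares with the antisense neighbour Gm29682. That neighbour was listed at the lowest value, 0.01, in every mouse, and RefSeq places Cdh5 itself from 104101613 to 104144504.

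Pcdh12, on chromosome 18, encodes a protocadherin of endothelial contacts that does not bind catenins. Its values were 4.61, 3.95 and 4.70 FPKM in pacing 1, 2 and 3, against 7.59, 7.34 and 5.86 FPKM in sham 1, 2 and 3. The groups did not overlap, and the highest paced minus the lowest sham value was -1.16 FPKM. Pcdh12 was the least abundant of the 10 genes, with a log2 fold change of -0.54 (SE 0.12). Set against Cdh5 within each mouse, Pcdh12 came to 0.0925, 0.0754 and 0.0821 of the Cdh5 level in pacing 1, 2 and 3, against 0.119, 0.0949 and 0.106 in sham 1, 2 and 3. The share in every paced mouse lay below that in every sham mouse, but pacing 1 (0.0925) and sham 2 (0.0949) were within counting error, which reached 7.8% for Pcdh12. How many gene pairs separate in this way was not counted, and nothing further is read from the share.

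Of the immunoglobulin-like adhesion genes, Pecam1 was the most abundant member. It lies on chromosome 11 from 106654213 to 106715281 and encodes a protein that binds its like across endothelial contacts and is also found on platelets and leukocytes. Its values were 70.0, 92.0 and 76.6 FPKM in pacing 1, 2 and 3, against 89.6, 77.0 and 77.6 FPKM in sham 1, 2 and 3. Pacing 2 was the highest of all mice and pacing 1 the lowest, so the groups overlapped fully (log2 fold change -0.04, SE 0.11). The sign of Pecam1 rested on single mice, at 0.05 without pacing 1, 0.03 without sham 1 and -0.15 without pacing 2. Icam2, a ligand of a leukocyte integrin, lies on the same chromosome from 106377656 to 106382641. Between their deposited spans are 271571 bases that hold 2 protein-coding genes in RefSeq, Ern1 and Tex2. Icam2 stood at 26.8, 33.1 and 28.3 FPKM in pacing 1, 2 and 3, against 39.1, 31.3 and 38.8 FPKM in sham 1, 2 and 3. Pacing 2 was above sham 2, and the other paced mice were below each sham mouse (log2 fold change -0.30, SE 0.12). The level of Icam2 relative to Pecam1 was 0.382, 0.36 and 0.369 in pacing 1, 2 and 3, against 0.436, 0.406 and 0.5 in sham 1, 2 and 3, without overlap. The nearest ratios, 0.382 in pacing 1 and 0.406 in sham 2, lay close together beside a counting error of up to 6.44% for Icam2. Both genes were chosen with this contrast known, and the share of gene pairs that separate in this way was not counted. Nothing further is read from the ratio.

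Esam encodes an adhesion molecule associated with endothelial tight junctions and also found on platelets, and lies on chromosome 9 from 37528089 to 37538319. Its values were 42.8, 45.3 and 45.7 FPKM in pacing 1, 2 and 3, against 49.8, 48.4 and 45.0 FPKM in sham 1, 2 and 3. Sham 3 lay within the paced range and the other sham mice above it, and the coefficients of variation were 3.49% in paced and 5.11% in sham mice (log2 fold change -0.10, SE 0.08).

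Cldn5 encodes the main claudin of endothelial tight junctions. It is a gene of 1 exon on chromosome 16 from 18776847 to 18778262. Its values were 13.4, 13.7 and 15.8 FPKM in pacing 1, 2 and 3, against 20.2, 12.4 and 15.0 FPKM in sham 1, 2 and 3. The sham mice held both the highest and the lowest value, and the coefficient of variation was 9.19% in paced mice, close to the counting error at this level, and 25.0% in sham mice. The log2 fold change of -0.12 had an SE of 0.16, the largest SE of the 10 genes. It was 0.06 without sham 1, a change of sign, and -0.27 without sham 2, with -0.07 without pacing 1 and -0.19 without pacing 3.

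Tek encodes the receptor of angiopoietins, and Tie1 a related receptor that has no angiopoietin of its own and modulates Tek. Both lie on chromosome 4, Tek from 94739289 to 94874976 and Tie1 from 118471191 to 118489849. Tek stood at 19.4, 16.7 and 19.8 FPKM in pacing 1, 2 and 3, against 24.3, 21.1 and 19.8 FPKM in sham 1, 2 and 3. The groups are counted as not overlapping, but pacing 3 minus sham 3 was -0.0556 FPKM, which is within counting error. The log2 fold change of Tek was -0.21 (SE 0.10), and it was -0.13 without sham 1 and -0.14 without pacing 2. Tie1 stood at 33.1, 38.7 and 33.4 FPKM in pacing 1, 2 and 3, against 39.5, 40.7 and 36.0 FPKM in sham 1, 2 and 3. Pacing 2 lay among the sham mice, and the log2 fold change of -0.14 (SE 0.09) was -0.21 without that mouse. Tie1 was more abundant than Tek in every mouse, by 1.71, 2.32 and 1.69 times in pacing 1, 2 and 3, against 1.63, 1.93 and 1.82 times in sham 1, 2 and 3, with overlap.

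Cd93, a lectin-like receptor that helps endothelial cells adhere and form vessels, lies on chromosome 2 from 148436651 to 148443535. It stood at 12.2, 13.3 and 14.2 FPKM in pacing 1, 2 and 3, against 19.5, 18.1 and 17.7 FPKM in sham 1, 2 and 3. The highest paced minus the lowest sham value was -3.52 FPKM, the widest gap of the 4 genes without overlap, and the spread was small, at 13.2 ± 0.988 FPKM in paced and 18.4 ± 0.918 FPKM in sham mice (SD, n = 3 each). The log2 fold change was -0.45 (SE 0.09).

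Bcl6b, a zinc finger repressor related to Bcl6 and the one nuclear protein among the 10, lies on chromosome 11 from 70224127 to 70229798. It stood at 8.12, 7.88 and 9.12 FPKM in pacing 1, 2 and 3, against 16.7, 11 and 12.1 FPKM in sham 1, 2 and 3. Paced mice were close together, while sham 1 stood well above the other sham mice. The log2 fold change of -0.59 (SE 0.14) was the most negative of the 10 genes, and it was -0.42 without sham 1.

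In the authors' deposited table of group values the log2 fold change was -0.66 for Bcl6b, -0.65 for Pcdh12, -0.48 for Cd93, -0.31 for Icam2 and -0.30 for Cdh5. The authors' deposited table called Bcl6b, Pcdh12 and Cd93 lower in pacing and called none of the other members. Of all rows in the authors' deposited table, 0.152% were called lower, and the list was drawn up with such calls known.

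**Figure D2:**
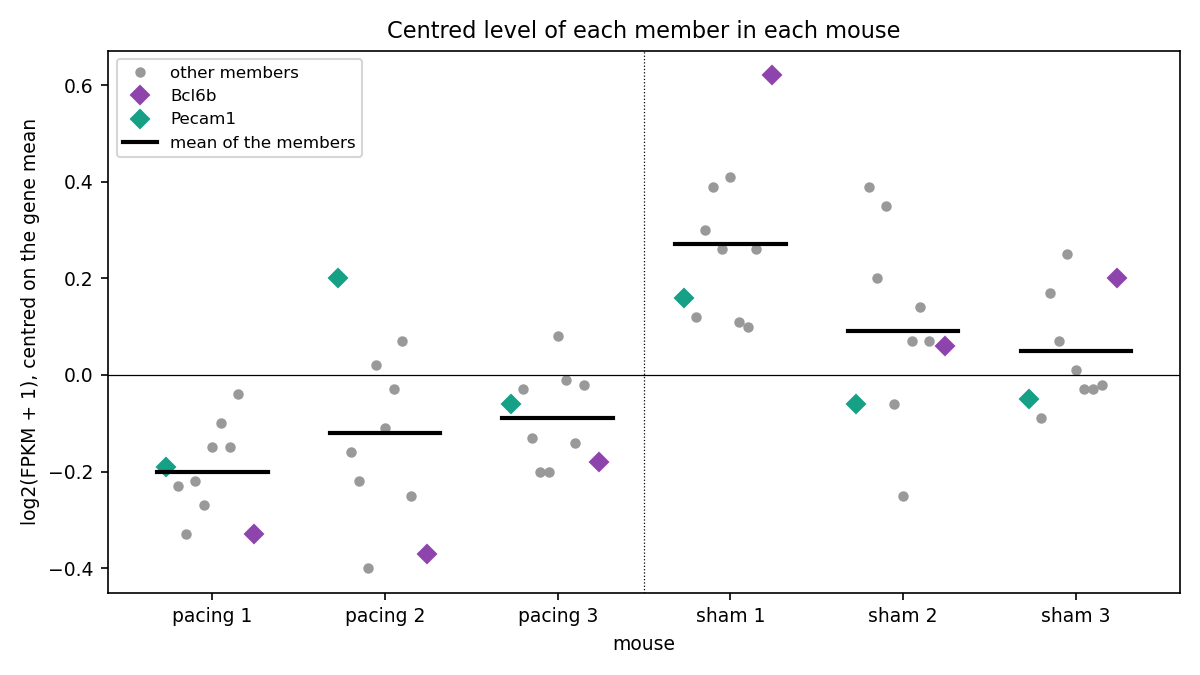
Level of each of the 10 genes in each mouse as log2(FPKM + 1) centred on the mean of that gene over the 6 mice; points are genes, and black lines are the mean over the 10. The mean over the genes was -0.20, -0.12 and -0.09 in pacing 1, 2 and 3 and 0.27, 0.09 and 0.05 in sham 1, 2 and 3, with Pecam1 above 0 in pacing 2 and Bcl6b at 0.62 in sham 1.

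The 10 genes were chosen by their group difference. Highs in sham mice, lows in paced mice and a lower paced sum follow in part from that choice. Shares over all genes were not counted for these patterns, and nothing further is read from them. Sham 1 was the highest of the 6 mice for 7 genes and sham 2 for 2, while for Pecam1 it was pacing 2. Pacing 1 was the lowest mouse for 6 genes and pacing 2 for 3, while for Cldn5 it was sham 2. The summed level of the 10 genes was 280, 317 and 305 FPKM in pacing 1, 2 and 3, against 370, 345 and 323 FPKM in sham 1, 2 and 3, without overlap. Bcl6b was the least like the other members, with a root mean square distance of 0.22 on the log2(FPKM + 1) scale from their mean profile over the 6 mice, and Tek the most alike, at 0.10. For all other genes tested, the median distance from the mean profile of the 10 was 0.20, so Bcl6b was no closer than a typical gene. The order of levels was nearly the same in both groups. It ran from Pecam1 through Cdh5, Esam, Tie1, Icam2 and Tek to Bcl6b and Pcdh12, and only Cldn5 and Cd93 changed places between them. In paced mice the ranges of Cldn5 and Cd93 overlapped, and Tie1 and Icam2 touched at 33.1 FPKM. In sham mice the ranges of Pecam1 and Cdh5, Tie1 and Icam2, Cd93 and Cldn5, and Cldn5 and Bcl6b overlapped.

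The genes outside the list whose centred profile over the 6 mice was closest to the mean of the members were, in order, Ift27, Kdr, Tmem25, Nudt11, Prkcq, Tmem86a, Tubgcp5 and Heyl. Their root mean square distances were 0.037 to 0.052 on the log2(FPKM + 1) scale, against a median of 0.20 over all other genes tested. Kdr, the main receptor of vascular endothelial growth factor on endothelial cells, stood at 26.7, 28.3 and 29.8 FPKM in pacing 1, 2 and 3, against 38.2, 33.5 and 30.3 FPKM in sham 1, 2 and 3. In Kdr pacing 1 was the lowest and sham 1 the highest mouse, as in the mean profile of the members. Heyl, a transcription factor downstream of Notch, stood at 7.39, 8.63 and 8.92 FPKM in pacing 1, 2 and 3, against 10.8, 10.2 and 9.39 FPKM in sham 1, 2 and 3. The likeness is to a profile chosen for its group difference, and each of the 8 genes also had its paced mice below its sham mice.

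Other endothelial genes, taken from a list that leaves the members out, were tested with limma over all genes. Of 43 surface and cytoplasmic genes tested, 0 passed an adjusted p under 0.05, where 0% of all genes did. At an unadjusted p under 0.05, 5 were lower and 0 higher in paced mice, where 3.69% of all genes were lower and 5.17% higher. Those lower were Aplnr, Exoc3l, Cyyr1, Kdr and Nostrin. Aplnr, the apelin receptor, had values of 14.0, 14.4 and 18.2 FPKM in pacing 1, 2 and 3, against 25.3, 23.8 and 23.3 FPKM in sham 1, 2 and 3 (a log2 fold change of -0.61, SE 0.11, with an adjusted p of 0.287 in limma). Cyyr1 averaged 7.40 ± 0.975 FPKM in paced and 9.24 ± 0.520 FPKM in sham mice (SD, n = 3 each), and Nostrin, which traffics the endothelial nitric oxide synthase, 5.74 ± 1.57 FPKM in paced and 7.57 ± 0.156 FPKM in sham mice. Egfl7, Gimap4 and Adgrl4 came next, each with an overlap between the groups and log2 fold changes of -0.21, -0.22 and -0.21. Over the 43 genes the median log2 fold change was -0.06, with 31 negative and 12 positive, and the means of Emcn were 64.5 ± 4.10 FPKM in paced and 66.6 ± 12.6 FPKM in sham mice (SD, n = 3 each). Emcn, a sialomucin of capillary and venous endothelium, was picked after its values were seen. The count of 5 became 1 without pacing 1, 3 without sham 1 and 3 without sham 2.

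**Figure D3:**
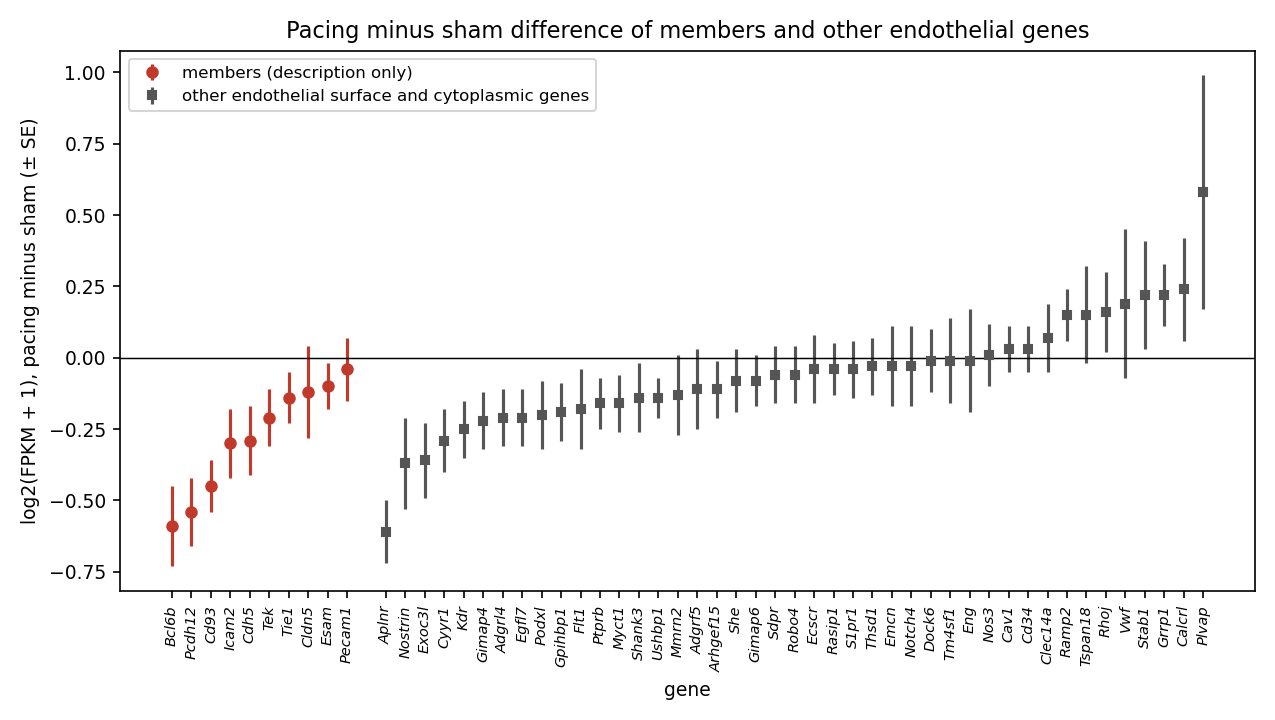
Log2(FPKM + 1) difference, pacing minus sham, for the 10 members in red and for 43 other endothelial genes in grey, each sorted by value; bars are SE from limma with 3 mice per group. With FPKM as deposited the members run from -0.59 for Bcl6b to -0.04 for Pecam1, and the other genes from -0.61 for Aplnr to 0.58 for Plvap.

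Endothelial transcription factors showed both directions, and 0 of 25 passed an adjusted p under 0.05 in limma. At an unadjusted p under 0.05, 5 were lower and 2 higher, where 3.69% of all genes were lower and 5.17% higher. The median log2 fold change was -0.14. Ets1, an ETS factor, stood at 12.4, 11 and 12.9 FPKM in pacing 1, 2 and 3, against 16.3, 15.3 and 14.1 FPKM in sham 1, 2 and 3 (a log2 fold change of -0.31, SE 0.09, with an adjusted p of 0.458 in limma). Ets2 averaged 28.1 ± 1.87 FPKM in paced and 33.3 ± 0.917 FPKM in sham mice, and Erg, the ETS factor most used as an endothelial marker, 10.2 ± 0.393 FPKM in paced and 11.7 ± 0.743 FPKM in sham mice, without overlap (SD, n = 3 each), although Erg did not reach the unadjusted threshold. Beside Ets1 and Ets2, those lower were Prox1, Tcf15 and Sox7, with log2 fold changes of -0.33, -0.36 and -0.27. Those higher were Klf2 and Klf4, which respond to blood flow, with log2 fold changes of 0.30 and 0.34.

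Of 29 junction partners tested, 0 passed an adjusted p under 0.05 in limma. At an unadjusted p under 0.05, 3 were lower and 1 higher, where 3.69% of all genes were lower and 5.17% higher. Ctnna1, the alpha-catenin that links cadherins to actin and is also abundant in heart muscle, stood at 173, 180 and 179 FPKM in pacing 1, 2 and 3, against 196, 201 and 200 FPKM in sham 1, 2 and 3. Its groups did not overlap, with a log2 fold change of -0.16 (SE 0.07) and an adjusted p of 0.562 in limma. Mllt4, which encodes the junction scaffold afadin, averaged 13.4 ± 1.98 FPKM in paced and 17.4 ± 0.433 FPKM in sham mice (SD, n = 3 each). Amotl1 had a log2 fold change of -0.19. The gene that was higher was Vcam1, an adhesion molecule that inflamed endothelium displays, at 16.1 ± 1.14 FPKM in paced and 12.1 ± 3.21 FPKM in sham mice (SD, n = 3 each).

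The list for the angiopoietin and Tie pathway also held Vegfa, Vegfb and Vegfc, which encode vascular endothelial growth factors and not ligands of Tie receptors. Of its 9 tested genes, 0 passed an adjusted p under 0.05 in limma. At an unadjusted p under 0.05, 1 was lower, Vegfa, and 1 higher, Dok2, where 3.69% of all genes were lower and 5.17% higher. Dok2, an adaptor that binds activated Tek and is also made by leukocytes, stood at 3.51, 3.5 and 3.18 FPKM in pacing 1, 2 and 3, against 2.97, 2.04 and 2.26 FPKM in sham 1, 2 and 3 (a log2 fold change of 0.37, SE 0.13, with an adjusted p of 0.492 in limma). Ptprb, the endothelial phosphatase that restrains Tek, averaged 16.8 ± 0.870 FPKM in paced and 18.8 ± 1.34 FPKM in sham mice (SD, n = 3 each). The angiopoietins Angpt1 and Angpt2, named here after their values were seen, overlapped between the groups. Angpt1 stood at 29.1, 30.4 and 36.5 FPKM in pacing 1, 2 and 3, against 48.3, 29.0 and 31.3 FPKM in sham 1, 2 and 3, and Angpt2 averaged 1.82 ± 0.517 FPKM in paced and 1.64 ± 0.763 FPKM in sham mice (SD, n = 3 each).

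Markers of vessel types had no common direction, and 0 passed an adjusted p under 0.05 in each list. The median log2 fold change was 0.12 for 12 arterial, -0.12 for 11 capillary, 0.17 for 6 venous, 0.07 for 5 lymphatic and 0.20 for 6 endocardial genes. Among arterial genes Jag1 averaged 3.94 ± 0.154 FPKM in paced and 3.11 ± 0.172 FPKM in sham mice, and among capillary genes Aqp7 averaged 8.51 ± 0.353 FPKM in paced and 10.9 ± 1.43 FPKM in sham mice (SD, n = 3 each). Plvap and Vwf, which mark venous and endocardial cells, spanned 14.2 to 26.9 and 11.5 to 14.9 FPKM in paced mice, against 6.85 to 26.5 and 8.11 to 18.2 FPKM in sham mice. The sham values of both were highest in sham 1.

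Marker genes of other tissues differed between the libraries. The summed FPKM of 8 lung epithelial markers was 2.45, 314 and 1724 in pacing 1, 2 and 3, against 4.97, 0.472 and 1.33 in sham 1, 2 and 3, with 6 of the 8 at the lowest value, 0.01, in at least 1 sham mouse and Sftpd and Cldn18 also in a paced mouse. The 6 adipocyte markers summed to 314, 203 and 177 in pacing 1, 2 and 3, against 166, 14.1 and 8.91 in sham 1, 2 and 3. For 5 atrial muscle markers the sums were 5714, 14615 and 10434 in pacing 1, 2 and 3, against 12627, 424 and 5280 in sham 1, 2 and 3. The 10 ventricular muscle markers summed to 66375, 68677 and 67713 in pacing 1, 2 and 3, against 69564, 85649 and 90661 in sham 1, 2 and 3, and all 10 had a negative log2 fold change (median -0.25). Fibroblast markers summed to 1024, 1113 and 1336 in pacing 1, 2 and 3, against 1047, 799 and 838 in sham 1, 2 and 3 over 8 genes. Dcn made up most of that sum. All 8 fibroblast markers had a positive log2 fold change (median 0.37). At an unadjusted p under 0.05 in limma, 4 were higher and 0 lower, where 5.17% of all genes were higher and 3.69% lower. Mfap5, Lum and Dcn lay wholly higher in paced mice, as did 6.25% of all genes tested. The gap was narrow for Lum, at 71.7 FPKM in both pacing 1 and sham 1, and for Dcn, at 672 and 666 FPKM in these mice. Leukocyte markers ranged from 310 to 414 in paced and from 205 to 335 in sham mice over 12 genes, a sum made up mostly of Lyz2. Of the 10 leukocyte markers tested 9 had a positive log2 fold change (median 0.26), with 4 higher and 0 lower at an unadjusted p under 0.05. Cd53, Lyz2, Coro1a and Laptm5 were those 4, and no fibroblast or leukocyte marker passed the adjusted threshold. Platelet markers ranged from 38.7 to 58.4 in paced and from 37.3 to 47.6 in sham mice over 9 genes, a sum made up mostly of Pf4. Only 2 were tested, Ppbp and Pf4, with log2 fold changes of 0.56 and 0.03, and neither passed the adjusted threshold. Ppbp lay wholly higher in paced mice and was higher at an unadjusted p under 0.05 in limma. Tubb1, Treml1 and Gp1bb, named after their values were seen and too low to be tested, also lay wholly higher. The other platelet markers, Itga2b, Gp9, Gp1ba, Gp6 and Pf4, overlapped between the groups. Gp1bb was at the lowest value, 0.01, in sham 1 and at 0.205 FPKM in pacing 1. How many genes at such low levels lay wholly higher was not counted. Of 12 mural markers of the vessel wall 0 passed the adjusted threshold, and 4 were higher and 3 lower at an unadjusted p under 0.05, with contractile genes such as Tagln (log2 fold change 1.04) and Myh11 (0.72) higher and the pericyte gene Rgs5 (-0.33), named after its values were seen, lower. The 12 mural genes together had a median of -0.05. The part of these tissues in the differences of the 10 genes was not tested beyond leaving libraries out.

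**Figure D4:**
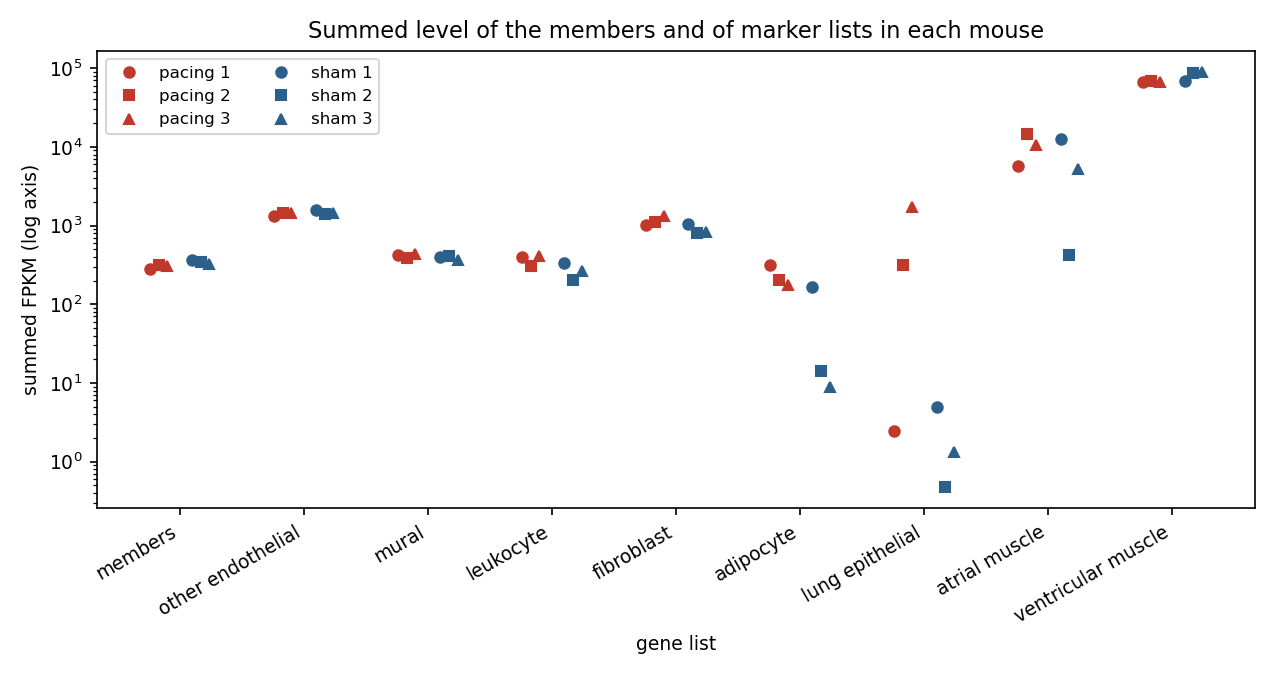
Summed FPKM on a log axis of the 10 members and of 8 marker lists in each mouse, with paced mice in red and sham mice in blue. Lung markers reach 314 and 1724 in pacing 2 and 3, while the members lie between 280 and 317 in paced and between 323 and 370 in sham mice.

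Pacing 1, the paced library with little lung RNA, lay below all 3 sham mice for 9 of the 10 members, as did 25.5% of all genes tested. That library was not free of other tissues, as its adipocyte markers summed to 314, the most of any mouse, and its atrial markers to 5714. Without pacing 2 and pacing 3 the log2 fold change was -0.37 for Cdh5, -0.21 for Pecam1, -0.42 for Icam2, -0.55 for Cd93, -0.49 for Pcdh12 and -0.62 for Bcl6b. It was -0.22 for Tie1, -0.21 for Cldn5, -0.15 for Esam and -0.15 for Tek, and the median over the 10 was -0.30. Without sham 1, the sham library with the most fat and atrial RNA, that median was -0.19. Members without overlap numbered 7 without pacing 2 and 7 without sham 3, where 12.3% and 11.8% of all genes lay wholly lower. Centring each library on its median over the other endothelial genes adds a single shift per library to every gene. It moved the median log2 fold change of all genes from -0.01 to 0.16, that of the other endothelial genes from -0.06 to 0.11 and that of the members from -0.25 to -0.08. Bcl6b (-0.42), Pcdh12 (-0.38) and Cd93 (-0.28) stayed wholly lower in paced mice under it. The members with the smallest differences took a positive sign through that common shift, at 0.13 for Pecam1, 0.07 for Esam, 0.05 for Cldn5 and 0.03 for Tie1. With FPKM rescaled to the same sum Pecam1 alone was positive (0.04).

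Over all genes 620 were higher and 442 lower in paced mice at an unadjusted p under 0.05, and 0 passed an adjusted p under 0.05 in limma, where the lowest adjusted p was 0.107. The split was 968 and 148 with FPKM rescaled to the same sum, and 514 and 615 with centring on medians. Genes passing the adjusted threshold numbered 107 without sham 1, 8 without pacing 1 and 1 without pacing 3, while of 128 genes tested in the endothelial, junction and Tie lists only Icam1, higher without sham 1 and named after its values were seen, was among them.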

How the data were processed

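Ventricular RNA of 6 mice was measured by stranded polyA sequencing with paired reads, per the labels' protocols. Named in the submitters' processing notes are the mm10 build, Cufflinks, Cuffdiff, Bowtie2 2.2.6, TopHat2 2.1.0 and FastQC 1.0.0. The annotation, filters and strand setting of the counting are not given in the sources used, so antisense overlaps cannot be told apart. The authors deposited an FPKM value per gene and mouse, and a comparison table with FPKM per group, a log2 ratio (fold change), a q-value and a call. Of 24239 rows, 1 with a failed value and 4 with repeated names were left out, and starts, given from 0, were moved by 1.

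limma 3.58.1 (R 4.3.3) was fitted to log2(FPKM + 1) for the 11992 genes whose FPKM averaged at least 1, with group as term and eBayes trended; tests were two-sided and Benjamini-Hochberg adjusted over all of them. The fit was tested on simulated data with planted changes larger than those of the members, so that test does not bear on changes of their size. The series design describes separate mice, so p-values measure the spread between mice. Depth came from 644 single-exon genes of 800 to 3000 bases, whose values under 10 fragments were whole within 0.05 of a fragment once the length was shortened by 166 bases; intervals from it cover counting error only. Fragment numbers of members use the GENCODE M21 transcript matched to RefSeq. Leaving out genes at the lowest value, 0.01, in either library, any pair of libraries shared at most 0.0135% of their values.

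Members and lists were chosen with earlier results of these data known. The genes named are the 10 members, of each list the 4 genes with the smallest p (8 for surface genes and transcription factors), and the 8 genes with the most alike profile; exceptions are marked. Same-numbered pacing and sham mice did not deviate together. Alternatives tried were a pseudocount of 0.1 or 0.5, a filter at 5 or none, other scalings, a replicate block, no trend and each mouse left out; the fit without pacing 2 and pacing 3 was chosen after seeing the data.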

Additional observations from a re-analysis of the deposited data

How the results depend on the processing

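Of 160 fold changes of members under the alternatives, 152 were negative and 150 moved by less than the spread between mice. The filter, replicate block and trend settings cannot move the fold change of a member, and the members were chosen for their measured difference. These counts are therefore no measure of robustness. Bcl6b ranged from -0.70 to -0.42, Pcdh12 from -0.65 to -0.38 and Cd93 from -0.55 to -0.28, and the sign of these 3, of Cdh5, Icam2 and Tek held under every alternative run, while Pecam1 ranged from -0.21 to 0.13 and Cldn5 from -0.27 to 0.06. The members' median ranged from -0.26 to -0.19 with each mouse left out in turn, and the members without overlap from 4 to 7. The 7 came without pacing 2 and without sham 3. Over all genes with a mouse left out, 0 to 107 passed the adjusted threshold, 294 to 733 were lower and 405 to 1005 higher at an unadjusted p (294 without pacing 1, 733 and 1005 without sham 1, 405 without sham 3), and 1 to 5 of the other endothelial genes were lower. Without pacing 2 and pacing 3, a choice made after seeing the data, 9 members had no overlap, where 25.5% of all genes lay wholly lower, and 242 genes were lower and 356 higher at an unadjusted p. The spread then comes from the sham mice, and the lone paced mouse is assumed to vary like them. Centring on the other endothelial genes gave a members' median of -0.08, a median of 0.11 for those other genes, 1 of them lower, and over all genes 198 passing, 25 lower and 1849 higher at an unadjusted p. It left 3 members without overlap, where 0.25% of all genes lay wholly lower. With no filter 6 genes passed. A filter at 5 gave 381 higher genes and 3 lower among the other endothelial genes. Centring on medians gave 8 lower among the other endothelial genes, a members' median of -0.27 and 5 members without overlap, where 9.61% of all genes lay wholly lower. Summed FPKM ran from 658558.3 in pacing 3 to 756383.9 in sham 3. Rescaling to the same sum gave 1 lower among the other endothelial genes, and over all genes 968 higher and 148 lower. The members' median was then -0.17, and 3 members, without Tek, had no overlap, where 2.72% of all genes lay wholly lower. With a replicate block 7 genes passed and 3 other endothelial genes were lower. Same-numbered mice deviated with correlations of -0.125, -0.0225 and -0.0201. These values show no shared deviation by number, but with 3 mice per group they cannot exclude a pairing. The cause of these shifts was not tested. Depth limits Cldn5, Bcl6b and Pcdh12 most, and 3 mice per group limit every comparison.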
